A study of Homo sapiens with 22 samples.

Results

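The large subunit of the cytosolic ribosome is built from ribosomal RNA and the products of the 45 genes described here, RPL3 to RPL41 with RPLP0, RPLP1 and RPLP2, out of 20136 protein-coding genes in the annotation. They were taken from a list of gene names, and no measured value was used to choose them. Earlier results of these data were known when the list was chosen. The measurement was ChIP-seq, in which DNA crosslinked to a protein is recovered with an antibody and sequenced, and places where the reads pile up are called as peaks. N-MYC and WDR5 were each mapped in CHP-134 and IMR-32, established neuroblastoma cell lines that both carry an amplified N-MYC gene. CHP-134 cells had been kept for 4 h in DMSO, the solvent, or in a compound, with 3 libraries for each treatment and antibody. Untreated IMR-32 cells gave 2 libraries for each antibody. The labels call the compound by several names (C38b, 419C91 and C91), so it is not identified here, and they give the DMSO content inconsistently. Each library pooled 3 immunoprecipitations from identical samples. The methods describe the ChIP-seq experiments as independent repeats, but neither they nor the labels say whether replicates were separate cultures, so the p-values below measure only the spread between these libraries. Lists from the IgG samples were not analysed here.

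Ribosomal protein genes are among the most strongly transcribed genes of a growing cell, and their mRNAs start with a run of pyrimidines, the TOP motif, that couples their translation to growth signals. MYC proteins bind DNA with their partner MAX at E-boxes such as CACGTG and raise the expression of genes for ribosome production. WDR5 is a WD-repeat scaffold of histone methyltransferase complexes that also binds MYC proteins, and genes for protein synthesis are among its known chromatin targets.

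The genomic windows that follow show what the results turn on. The start sites of RPL5, RPL35, RPL37 and RPL18 are given on the strand of each gene in GRCh37 (hg19), from 15 bases before the annotated transcription start site (TSS) to 14 bases after it. Capitals mark the unbroken pyrimidine run that begins at the TSS.
RPL5, chr1:93297582-93297611, plus strand: cgcaagggctgtggcCCTTTTCCCaccccc
RPL35, chr9:127624222-127624251, minus strand: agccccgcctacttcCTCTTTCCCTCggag
RPL37, chr5:40835310-40835339, minus strand: tagcggaagtgccttCTCTTCCggtctttc
RPL18, chr19:49122421-49122450, minus strand: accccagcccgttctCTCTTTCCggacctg

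WDR5 peaks had their summits (the base of highest pileup) not at these runs but farther downstream, in intron 1 of the canonical transcript. For RPL35, RPL37, RPL10A and RPL12, 81 bases are shown around the WDR5 summit of CHP-134 cells under DMSO, with the summit base in capitals. The summit is that of the DMSO library in which the peak of the gene had its highest −log10 q-value, not the mean over libraries. RPL35 was a locus of the ChIP-QPCR panels of the study, and RPL37 had summits that nearly coincided between libraries. RPL10A was among the genes whose WDR5 rank fell under the compound. RPL12 alone among large subunit genes had CACGTG, the only E-box sequence searched, within 100 bp of its WDR5 summit in that group.
RPL35, chr9:127624030-127624110, minus strand, 126 to 206 bases after the TSS: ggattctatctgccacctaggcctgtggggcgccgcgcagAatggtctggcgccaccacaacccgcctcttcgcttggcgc
RPL37, chr5:40835147-40835227, minus strand, 97 to 177 bases after the TSS: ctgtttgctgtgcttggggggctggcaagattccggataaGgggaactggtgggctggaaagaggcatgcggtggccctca
RPL10A, chr6:35436303-35436383, plus strand, 125 to 205 bases after the TSS: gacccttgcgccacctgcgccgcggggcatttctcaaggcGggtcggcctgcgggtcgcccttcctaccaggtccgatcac
RPL12, chr9:130213428-130213508, minus strand, 177 to 257 bases after the TSS: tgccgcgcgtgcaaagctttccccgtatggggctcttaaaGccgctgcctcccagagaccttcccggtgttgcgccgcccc

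The last pair shows motif matches. The CACGTG of RPL12 lies in its intron 1, downstream of the WDR5 summit. RPL10, which had N-MYC upstream of its TSS in CHP-134 (and downstream, at 562 bp, in the single IMR-32 library that listed it) and no WDR5 peak in any library, carries TCTCGCGA, the motif of the factor BANP, in its promoter. Capitals mark the motif in each.
RPL12 E-box, chr9:130213367-130213412, minus strand, 273 to 318 bases after the TSS: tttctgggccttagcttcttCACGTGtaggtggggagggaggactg
RPL10 promoter, chrX:153626464-153626511, plus strand: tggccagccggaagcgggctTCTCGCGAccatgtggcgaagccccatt

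Each library has its own peak list with a fold enrichment over local background for every peak. A gene counted as listed in a library when a peak summit lay within 1 kb of any of its TSSs, and the peak with the highest fold was used. Its percentile is the rank of that fold among all peaks of the same list, from 0 to 100. A fold depends on the background and depth of its library, so ranks were compared between lists, and folds, centred on each list, only in an alternative. The lists hold no read counts, so depth is unknown, and the number of peaks is the nearest measure of it. N-MYC lists held 9125 to 15286 peaks under DMSO, 2964 to 12313 under the compound and 5242 to 8286 in IMR-32. WDR5 lists held 1671 to 4891 peaks under DMSO, 15 to 5973 under the compound and 1258 to 1693 in IMR-32. The compound libraries of replicate 2 stood apart, with 2964 N-MYC peaks and 15 WDR5 peaks, and results that rest on them are also given without them. The WDR5 list of compound replicate 3 was also short, with 401 peaks against 1671 in DMSO replicate 3. A gene missing from a list did not pass the threshold of peak calling there, which does not show that the protein was absent.

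WDR5 was listed at most of the 45 genes in both cell lines. In CHP-134 cells under DMSO the 3 libraries listed 37, 34 and 34 of them, and 34 were listed in at least 2 libraries, where 8.06% of all protein-coding genes were. In IMR-32, 38 and 35 were listed, and 34 were listed in both libraries, against 4.60% of all genes. These were the same 34 genes in both lines. Of all genes with WDR5 in at least 2 DMSO libraries of CHP-134, 40.8% were listed in both IMR-32 libraries.

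N-MYC was listed even more widely. The 3 DMSO libraries held 44, 42 and 43 of the 45 genes, and 44 were listed in at least 2, against 36.8% of all genes. The IMR-32 libraries held 44 and 38, with 38 in both, against 14.9% of all genes. Of the 44 genes of CHP-134, 38 were listed in both IMR-32 libraries, where the share over all genes so listed in CHP-134 was 38.5%. RPL10, RPL11, RPL19, RPL27A, RPL30 and RPL39 were missing from IMR-32 replicate 2, which held the shorter list. No gene was listed in every library of one line and in none of the other, for either protein.

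Both proteins were listed together at 34 of the 45 genes in CHP-134 under DMSO, against 7.26% of all genes, and at 31 in IMR-32, against 2.45%. All 31 were also among the 34, so that 31 of 45 genes carried N-MYC and WDR5 in both lines, where 378 of 20136 genes did (1.88%). RPL11, RPL19 and RPL39 carried both proteins in CHP-134 and lacked N-MYC in a single IMR-32 library. All 34 genes with WDR5 in CHP-134 also had N-MYC, against 90.1% of all genes with WDR5.

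**Figure D1:**
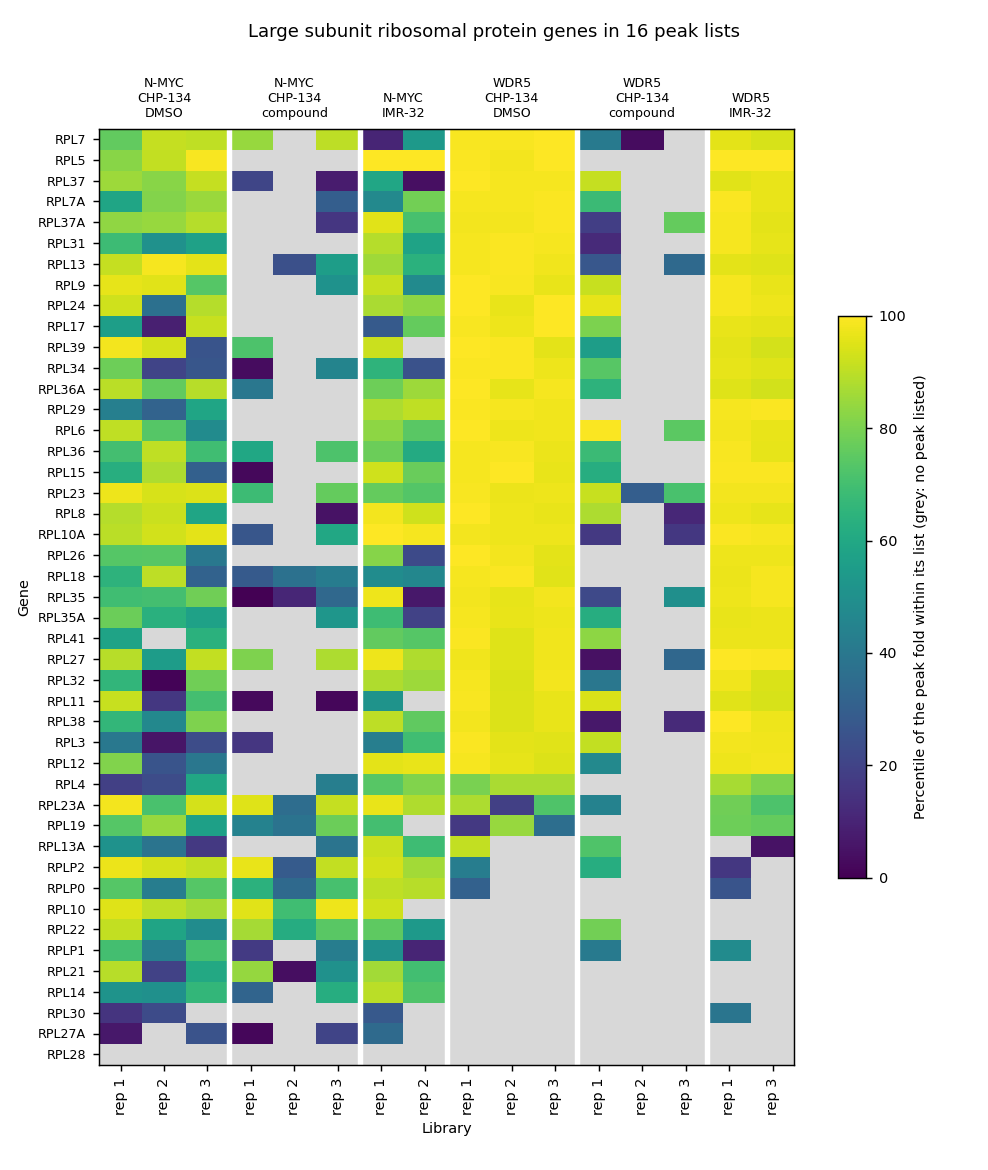
Percentile of the peak of each of the 45 genes (rows) within each of the 16 peak lists (columns), from 0 (weakest peak of the list) to 100 (strongest), with grey where the gene was not listed. The WDR5 columns of DMSO and IMR-32 are near the top of the scale for 31 of the 34 listed genes, and the compound columns of both proteins are mostly darker or grey.

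The WDR5 peaks of these genes were among the strongest of their lists. Their median percentile was 98.8, 97.4 and 97.6 in the 3 DMSO libraries and 97.3 and 96.5 in IMR-32, while the median over all listed genes lay between 51.4 and 54.4. The median fold of the listed large subunit genes was 10.4, 9.87 and 10.3 times the median of the list under DMSO, and 30.9 and 20.3 times in IMR-32. Of the 34 genes, 31 stood at percentile 94.2 or higher in every DMSO library and at 93.1 or higher in both IMR-32 libraries. The remaining 3, RPL4, RPL19 and RPL23A, stood lower in each of the 5 libraries.

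Highest in IMR-32 and next to RPL7 under DMSO was RPL5, which with RPL11 and the 5S ribosomal RNA forms a particle that can bind and restrain MDM2, the ligase that degrades p53. Its WDR5 percentiles were 99.4, 98.4 and 99.8 under DMSO and 100 in both IMR-32 libraries, at folds of 52.5, 59.6, 85.8, 307 and 277 over the background of each library. RPL11 stood at 99.2, 94.7 and 96.8 under DMSO and at 95.7 and 93.8 in IMR-32. RPL7, RPL31, RPL37 and RPL7A completed the 5 highest genes under DMSO, and RPL27, RPL15, RPL29 and RPL10A joined RPL5 in IMR-32. RPL37 stood at 99.7, 98.5 and 98.7 and RPL7 at 99.2, 99.0 and 100 under DMSO. All of these lay in a narrow band near the top of their lists.

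Proteins around the exit of the peptide tunnel, where nascent chains leave the ribosome, were coded by genes at both ends of the range. RPL35, a ChIP-QPCR locus of the study and part of that exit site, had WDR5 percentiles of 98.3, 96.3 and 98.2 under DMSO and 97.4 and 98.5 in IMR-32. RPL17, a second such locus, stood at 99.0, 97.5 and 99.9 and at 96.6 and 95.9. RPL23A, the docking site of factors that receive the nascent chain, stood at only 87.5, 19.1 and 72.6 under DMSO and 78.3 and 71.9 in IMR-32. RPL19 stood at 16.6, 84.6 and 36.3 and at 77.8 and 76.2, with a wide spread between the DMSO libraries. RPL4, which lines the tunnel, stood at 80.0, 87.3 and 87.2 and at 86.9 and 80.6. RPL38 and RPL12 were the next lowest under DMSO, at 98.2, 94.9 and 96.6 for RPL38 and at 98.6, 96.2 and 94.8 for RPL12, well above these 3 genes.

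The genes without WDR5 included most of the stalk, the flexible arm of RPLP0, RPLP1 and RPLP2 that recruits translation factors. Under DMSO, RPLP1 was listed in no WDR5 library, and RPLP0 and RPLP2 only in replicate 1, the longest list, at percentiles 31.1 and 42.5. In IMR-32, replicate 1 alone listed the 3 stalk genes, at 25.9 for RPLP0, 48.2 for RPLP1 and 16.1 for RPLP2. RPL10 (a late-joining protein near the catalytic centre), RPL14, RPL21, RPL22 and RPL27A were listed for WDR5 in no DMSO and no IMR-32 library. RPL30 was listed for it in a single IMR-32 library, at 38.7, and RPL13A at 90.9 in DMSO replicate 1 and 5.05 in IMR-32 replicate 3. RPL28 was listed in none of the 16 libraries for either protein. Where genes of this group had any WDR5 peak under DMSO or in IMR-32, it was near the middle of its list or lower, apart from that of RPL13A under DMSO.

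N-MYC ranked these genes above the middle of its lists, with medians of 76.6, 70.8 and 70.1 under DMSO and 86.0 and 73.4 in IMR-32, against 54.2 to 59.3 over all listed genes. The median fold was only 1.22 to 1.37 times the median of the list under DMSO. The 5 highest genes under DMSO were RPL23, RPL13, RPLP2, RPL10A and RPL5. RPL23, which like RPL5 and RPL11 can bind MDM2, stood at 97.3, 94.1 and 94.9, and RPLP2 at 97.0, 93.6 and 91.0. RPL5 stood at 82.3, 91.0 and 99.1 under DMSO and at 99.9 and 99.7 in IMR-32, a difference that was not called in the test between lines. RPL10A, RPL12, RPL8 and RPL27 completed the 5 highest of IMR-32.

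Among genes with N-MYC in all 3 DMSO libraries, the lowest were RPL29, RPL34, RPL13A, RPL4 and RPL3. RPL27A and RPL30, listed in 2 of the 3, stood lower still, at means of 15.9 and 19.0. RPL3, a protein close to the peptidyl transferase centre, stood at 40.1, 5.75 and 23.4, although its WDR5 peaks stood at 99.4, 95.9 and 95.6. RPL29 stood at 43.3, 31.7 and 58.7 for N-MYC and at 99.3, 98.7 and 98.0 for WDR5. The N-MYC order of the genes was thus not the WDR5 order. N-MYC percentiles also varied more between libraries, as for RPL17 at 56.0, 8.75 and 91.5.

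**Figure D2:**
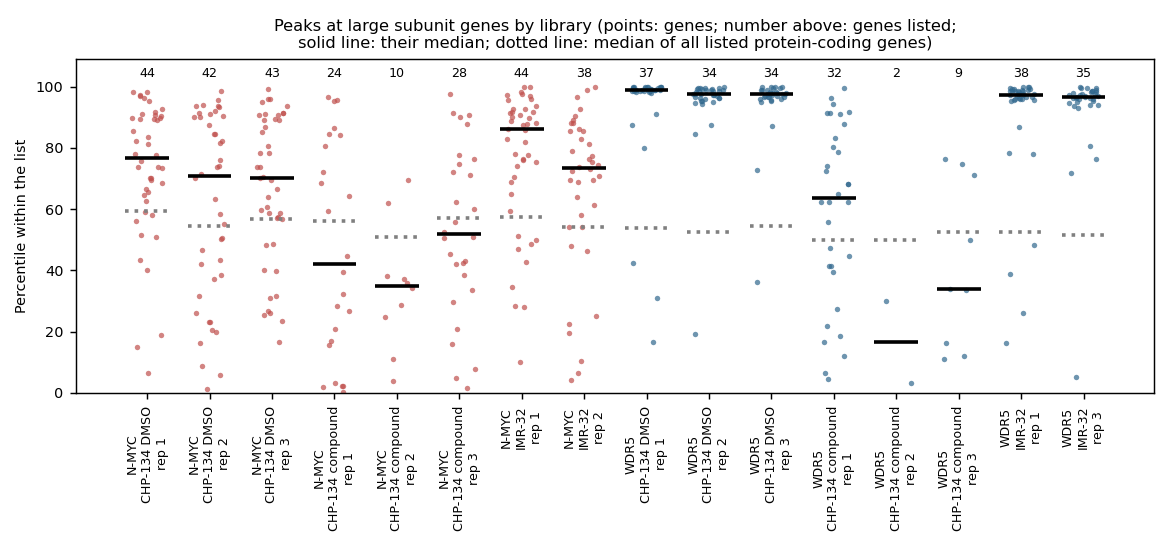
Percentile within the list (vertical axis, 0 to 100) of every listed large subunit gene in each of the 16 libraries (horizontal axis), with the median of these genes and the median of all listed protein-coding genes. The medians of the large subunit genes are 96.5 to 98.8 for WDR5 under DMSO and in IMR-32, 70.1 to 86.0 for N-MYC in the same cells, and 16.7 to 63.6 in the compound libraries.

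To compare the proteins within a line, each gene listed in every library of both was ranked among those genes, library by library, and the ranks (percentiles among shared genes) were compared with limma. In CHP-134 under DMSO, 33 of the 45 genes entered the fit, and 25 ranked higher for WDR5 at an adjusted p under 0.05, against 22.6% of all genes tested. The largest difference was at RPL3, with N-MYC ranks of 10.1, 2.82 and 5.40 and WDR5 ranks of 95.1, 87.2 and 87.3, a difference of 83.8 ± 7.03 (SE, n = 3 and 3, limma, adjusted p = 0.000608). RPL29 differed by 78.6 ± 6.99, RPL34 by 78.4 ± 9.66 and RPL31 by 70.3 ± 6.89. RPL32, RPL17, RPL12, RPL26, RPL15 and RPL35A followed, with differences of 59.2 to 68.0. In each of these 10 genes every WDR5 rank lay above every N-MYC rank.

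The 8 genes not called were RPL5, RPL9, RPL10A, RPL13, RPL19, RPL23, RPL23A and RPL39. RPL23 had an N-MYC mean of 79.7 and a WDR5 mean of 91.9, and RPL5 means of 70.2 and 96.6 (limma, adjusted p = 0.189 and 0.126). RPL19 and RPL23A alone had a negative difference, −5.81 ± 16.8 for RPL19 and −31.5 ± 14.7 for RPL23A (limma, adjusted p = 0.798 and 0.121). With the replicate number as a block, which pairs libraries of the same number, RPL23A was called lower for WDR5 (limma, adjusted p = 0.010), and 26 genes were called higher. Over all 620 genes, 164 were called higher and 168 lower with the block. With percentiles within the whole lists in place of ranks among shared genes, 6 genes were called higher, and over all 620 genes 35 were.

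In IMR-32, 31 genes entered the same fit and 15 ranked higher for WDR5, against 19.5% of all genes tested. RPL37 differed most, with a mean N-MYC rank of 13.0 and a mean WDR5 rank of 86.8, a difference of 73.8 ± 10.2 (SE, n = 2 and 2, limma, adjusted p = 0.0152). RPL18, RPL35A, RPL34, RPL7, RPL3, RPL26, RPL36, RPL23 and RPL41 followed, with differences of 44.5 to 69.0. RPL3, RPL34, RPL26 and RPL35A were among the 10 largest differences in both lines. Without either WDR5 library of IMR-32 no gene was called, and the remaining single library is then assumed to vary like the N-MYC libraries.

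WDR5 summits lay in a narrow band downstream of the TSS at nearly all of the 34 genes. Measured from the canonical TSS and averaged over libraries, it lay at a median of 142 bp downstream in CHP-134 under DMSO (34 genes) and at 142 bp downstream in IMR-32 (34 genes). It fell between 75 and 225 bp downstream at 33 of the 34 genes in each line (97.1%), against 22.6% and 24.4% of all genes listed in every library. These edges were not set in advance and lie around the median of the same summits. A high share of these genes inside them is therefore partly built in. The quartiles were 132 and 159 bp in CHP-134 and 135 and 148 bp in IMR-32. At RPL37, whose summit is shown above, the 3 DMSO summits lay 137, 136 and 138 bp downstream, and those of RPL3 lay 123, 117 and 125 bp downstream. Over genes, the median range between libraries was 25.5 bp under DMSO and 20.5 bp in IMR-32.

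The closest summits to the TSS under DMSO were those of RPL23, RPL29, RPL17, RPL11 and RPL3, and the farthest were those of RPL38, RPL32, RPL12, RPL19 and RPL23A. RPL23 had 108, 98 and 119 bp. RPL23A was the only gene outside the band, with summits 293, 284 and 148 bp downstream under DMSO and 320 and 270 bp downstream in IMR-32. RPL19 had 157, 179 and 273 bp. Both of these belong to the 3 genes with low WDR5 percentiles, and RPL4, the other, had 113, 132 and 190 bp.

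Exon 1 of these genes is short, with a median of 38.5 bases over the 34 genes, and most summits lay beyond it. The mean summit under DMSO was in intron 1 at 32 genes and in exon 1 at RPL8 and RPL41. In IMR-32 it was in intron 1 at 33 genes. Between genes, the mean summit position from the TSS had an SD of 27.1 bp in CHP-134 and 30.3 bp in IMR-32.

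N-MYC summits were also mostly downstream, with a wider scatter. Among the 41 genes with N-MYC in all 3 DMSO libraries the median summit was 114 bp downstream, and 35 summits (85.4%) were downstream, against 40.7% over all genes. In IMR-32 the median was 137 bp downstream, with 35 of 38 downstream (92.1%), against 34.2% over all genes. The mean summits ranged from 314 bp upstream to 279 bp downstream in CHP-134. RPL10 and RPLP2 had the farthest upstream summits, at −279, −212 and −450 bp for RPL10 and at −290, −276 and −313 bp for RPLP2 (negative values are upstream), and neither had WDR5 in more than a single DMSO library.

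At genes listed for both proteins in all DMSO libraries, the mean summits lay within 50 bp of each other at 19 of 33 genes (57.6%, all genes 30.9%) and within 100 bp at 29 (87.9%, all genes 48.0%). In IMR-32 the counts were 21 and 29 of 31 (67.7% and 93.5%, all genes 25.7% and 44.6%). The positions were compared gene by gene with limma. WDR5 summits were farther downstream at 3 of 33 genes in CHP-134, RPL27, RPL36A and RPL35A, against 16% of all genes tested. In IMR-32 this held at 1 of 31, RPL27, against 20%. RPL27 had N-MYC summits at −31, −40 and −16 bp and WDR5 summits at 155, 175 and 131 bp in CHP-134, a difference of 183 ± 18.9 bp (SE, n = 3 and 3, limma, adjusted p = 0.00171). Its IMR-32 summits were −101 and −71 bp for N-MYC and 148 and 172 bp for WDR5, a difference of 246 ± 21.8 bp (SE, n = 2 and 2, limma, adjusted p = 0.00959). RPL27 thus had its N-MYC summits upstream and its WDR5 summits downstream in every library of both groups. RPL36A differed by 104 ± 24.1 bp and RPL35A by 79.3 ± 17.8 bp in CHP-134 (limma, adjusted p = 0.0309 and 0.0285). Measured from the nearest of its TSSs, the difference at RPL36A turned to −86.7 bp, and RPL27 was no longer called in IMR-32.

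Ranks were also compared between the lines, CHP-134 under DMSO against untreated IMR-32. CHP-134 gave single reads and IMR-32 gave paired reads from another instrument. Cell line, sequencing run and DMSO treatment therefore cannot be told apart. For N-MYC, 37 genes entered the fit and 0 were called, against 0% of all 2582 genes tested with limma, of which 351 had an unadjusted p under 0.05, and 11 of these were large subunit genes. Of the 37, 28 ranked lower in CHP-134, with a median difference of −14.8 against −0.302 over all genes. The largest differences were at RPL12, with a mean rank of 21.0 in CHP-134 and 91.5 in IMR-32, at RPL29 (15 and 77.4) and at RPL13A (10.8 and 67.6). In the other direction RPL37 stood at 60.5 and 15.5, RPL7 at 59.3 and 20.7 and RPL23 at 84.0 and 55.3.

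For WDR5, 34 genes entered the fit between lines and 0 were called by limma, against 5.06% of all 494 genes tested, and 3 of the 34 had an unadjusted p under 0.05. Differences ran from −19.3 at RPL19 (mean rank 23.7 in CHP-134 and 42.9 in IMR-32) to 13.0 at RPL7 (95.6 and 82.7). RPL27 (82.5 and 98.6) and RPL23A (25.3 and 40.4) ranked lower in CHP-134, and RPL36A (92.5 and 80.1) and RPL39 (94.0 and 82.8) higher. On the centred log2 fold in place of ranks, 17 of the 34 were called lower in CHP-134, and over all 494 genes 101 were called lower and 65 higher.

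Under the compound, WDR5 was listed at far fewer of these genes in replicates 2 and 3, whose lists held only 15 and 401 peaks. In replicate 1, with 5973 peaks, it was listed at 32, against 37 under DMSO. The WDR5 peaks listed at these genes under the compound were mostly weaker within their lists. The 3 compound libraries listed 32, 2 and 9 of the 45 genes, and 10 were listed in at least 2, against 1.27% of all genes. Of the 34 genes with WDR5 in all 3 DMSO libraries, RPL4, RPL5, RPL18, RPL19, RPL26 and RPL29 were listed in no compound library (6 of 34), against 39.7% of all genes so listed. The count was also 6 without compound replicate 2. RPL23 alone was listed in all 3 compound libraries, at percentiles of 91.5, 30 and 71.2. In replicate 1, whose compound list was the longer, 7 of 37 genes listed under DMSO were missing under the compound, against 53.5% of all genes. In replicate 3 the number was 25 of 34, against 82.7%. The share of these genes that went unlisted was therefore below that of all genes in both replicates. Their WDR5 peaks started higher, at median percentiles of 98.8 and 97.6 in DMSO replicates 1 and 3, against 53.8 and 54.4 over all listed genes. Genes of like starting strength were not compared for listing.

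Rank was a different matter. In replicate 1, 30 large subunit genes were listed under both treatments and 29 had a lower percentile under the compound, with medians of 98.8 and 63.6. Over all genes listed in both, 50.2% were lower, with medians of 61.8 and 55.7. In replicate 3, all 9 genes listed in both were lower, with medians of 97.7 and 34.0, and over all genes 53.5% were lower. A peak near the top of its list has little room to rise, so these counts depend in part on the starting rank. The same holds for the fit below, and no comparison was made with genes of like starting rank. The median fold of the listed large subunit genes was 1.08, 0.728 and 0.903 times the median of the list under the compound. RPL6 stayed near the top of the list in replicate 1, at 99.9 under DMSO and 99.5 under the compound, and it stood at 97.8 and 74.7 in replicate 3.

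In the limma fit of compound against DMSO (3 and 2 libraries, since the list of 15 peaks was left out), 9 large subunit genes were ranked and 8 fell, against 15.2% of the 138 genes tested. RPL38 had ranks of 80.8, 80.1 and 85.9 under DMSO and of 2.90 and 9.78 under the compound, a difference of −75.9 ± 7.34 (SE, limma, adjusted p = 0.00379). RPL10A had 84.4, 91.7 and 87.3 against 10.5 and 14.1, a difference of −75.5 ± 7.23 (SE, limma, adjusted p = 0.00379). RPL35, the ChIP-QPCR locus, had 82.6, 86.2 and 93.5 against 13.0 and 39.1, a difference of −61.4 ± 10.4 (SE, limma, adjusted p = 0.0136). In these genes every compound rank lay below every DMSO rank. RPL13, RPL27, RPL8, RPL37A and RPL23 fell by 39.6 to 70.8, and RPL6 differed by −26.4 ± 10.7 (limma, adjusted p = 0.108). The count of 8 depends on single libraries: it was 3, 2 and 2 without DMSO replicate 1, 2 or 3, and 17 of 28 ranked genes without compound replicate 3. Over all genes tested, those called lower were 5 of 147, 4 of 173 and 5 of 152, and 79 of 427. With unlisted genes set at percentile 0, an alternative chosen after seeing the data, 14 of 39 genes were called lower, against 4.43% of 5507 genes, among them RPL5 (mean 99.2 under DMSO and 0 under the compound), RPL18, RPL26, RPL29 and RPL4. This last fit included the list of 15 peaks, where nearly every gene is at 0, and without it 9 of 39 were called lower (162 of 5507 genes), as were 9 with the replicate block (180 of 5507 genes).

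N-MYC was also listed at fewer of these genes under the compound. The compound libraries held 24, 10 and 28 of the 45, and 21 were listed in at least 2, against 29.1% of all genes, where DMSO had 44 against 36.8%. Of the 41 genes with N-MYC in all 3 DMSO libraries, 10 were in no compound library, against 1.97% of all genes (102 of 5185). These were RPL5, RPL6, RPL12, RPL17, RPL24, RPL26, RPL29, RPL31, RPL32 and RPL38. The same count of 10 was found without compound replicate 2. RPL5, RPL26 and RPL29 had neither N-MYC nor WDR5 in any compound library, after being listed for both in every DMSO library.

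Replicate by replicate, the share missing under the compound was above that of all genes. In replicate 1, 20 of 44 genes were missing, against 26.3% of all genes. In replicate 3, whose DMSO and compound lists were of nearly equal length (12283 and 12313 peaks), 15 of 43 were missing, against 13.9%. In replicate 2, 32 of 42 were missing, where 64.6% of all genes were. Among genes listed in both, the percentile was lower under the compound at 22 of 24 in replicate 1 (medians 81.6 and 42.0), where 69.7% of all genes were lower (70.2 and 57.5). In replicate 3 it was lower at 21 of 28 (72.1 and 51.7), against 51.1% of all genes (63.0 and 62.5). Here too the large subunit genes started from a higher median, and genes of like starting rank were not compared.

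**Figure D3:**
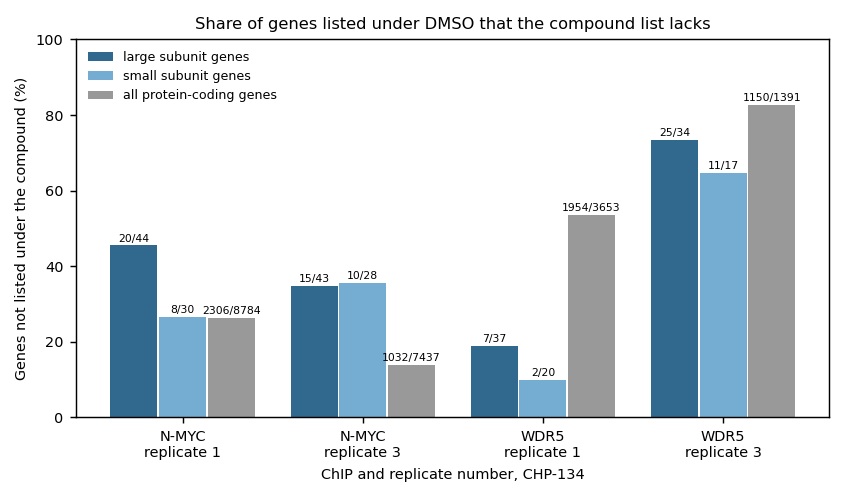
Percent of genes listed under DMSO that were not listed under the compound (vertical axis), for N-MYC and WDR5 in replicates 1 and 3, with bars for the large subunit genes, the small subunit genes and all protein-coding genes and the counts above them. Against all genes, the large subunit bars for N-MYC are higher in replicate 1 (45.5 against 26.3%) and replicate 3 (34.9 against 13.9%), and those for WDR5 are lower in replicate 1 (18.9 against 53.5%) and replicate 3 (73.5 against 82.7%).

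The 10 genes that went from all 3 DMSO libraries to no compound library for N-MYC all carried WDR5 under DMSO. Of the 33 with both proteins in all 3 DMSO libraries, 10 lost their N-MYC listing in every compound library (30.3%), while over all genes of that kind 29 of 620 did (4.68%). Of the 5 with N-MYC in all 3 and WDR5 in none, 0 did, and over all genes of that kind 61 of 2433 (2.51%). RPL30, also without WDR5, had N-MYC in DMSO replicates 1 and 2, at percentiles 15.1 and 23.0, and in no compound library. In replicate 3 alone the counts were 15 of 34 with WDR5 and 0 of 6 without it, and over all genes 78 of 696 (11.2%) and 740 of 4030 (18.4%). Only 5 or 6 large subunit genes lacked WDR5, and the difference between these classes was not tested.

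The starting rank of the N-MYC peak moved with the loss as well. Of the 7 genes with a mean DMSO percentile under 50, 3 were in no compound library, of the 18 between 50 and 75, 6, and of the 16 above 75, 1. Over all genes the counts were 70 of 1597, 24 of 1827 and 8 of 1761. The single strongly ranked gene was RPL5, whose N-MYC folds under DMSO were 7.44, 9.09 and 17.1 at percentiles 82.3, 91.0 and 99.1, and which was listed in no compound library. RPL17 went from 56.0, 8.75 and 91.5, and RPL12 from 81.1, 26.1 and 39.8, to no listing.

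The 9 genes that kept N-MYC in all 3 compound libraries were RPL10, RPL18, RPL19, RPL21, RPL22, RPL23A, RPL35, RPLP0 and RPLP2. Of these, RPL10, RPL21 and RPL22 had no WDR5 peak under DMSO, RPLP0 and RPLP2 had it in 1 library, RPL19 and RPL23A had it at low rank, and RPL18 and RPL35 had it near the top of the lists. RPL10 stood at 95.3, 90.1 and 86.7 under DMSO and at 95.5, 69.4 and 97.6 under the compound, and the groups overlap. RPL35 stood at 69.5, 70.2 and 78.2 under DMSO and at 0.17, 10.9 and 33.6 under the compound, and the groups do not overlap.

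These 9 genes entered the limma fit of N-MYC ranks and 0 were called, against 0% of the 2011 genes tested, 21 of which had an unadjusted p under 0.05. RPL35 was the single large subunit gene among those 21, with a mean rank of 27.7 under DMSO and 5.74 under the compound, a difference of −22.0 ± 8.80 (SE, n = 3 and 3, limma, adjusted p = 1.0). RPLP2 differed by −15.8 ± 15.9, RPL18 by −11.4 ± 17.6, RPL22 by 22.1 ± 14.5, RPL10 by 15.1 ± 9.88 and RPLP0 by 8.34 ± 9.03. The fit holds only genes listed in all 6 libraries, so the genes that went unlisted are outside it. With unlisted genes set at percentile 0, the median difference of 44 large subunit genes was −47.8 against −9.99 over 10010 genes, and again 0 were called by limma, with 22 of the 44 and 318 of all genes at an unadjusted p under 0.05. Without compound replicate 2 these medians were −40.2 and −1.85.

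N-MYC summits that remained under the compound were often on the other side of the TSS. In replicate 1, 24 genes were listed under both treatments, and the number with a downstream summit was 19 under DMSO and 9 under the compound. At 10 genes, RPL3, RPL15, RPL18, RPL22, RPL23, RPL27A, RPL34, RPL36, RPL37 and RPL39, it was downstream under DMSO and upstream under the compound, and at 0 the reverse. Over 6460 genes the downstream summits numbered 2560 and 2609, with 493 going upstream and 542 downstream. Of the summits downstream under DMSO, 52.6% went upstream at large subunit genes and 19.3% over all genes. Of those upstream under DMSO, 0% and 13.9% went downstream. Most large subunit summits were downstream under DMSO, so few could go the other way. The median difference of the summit was −61 bp for the large subunit genes and −2 bp over all genes.

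In replicate 3, 28 genes were listed under both, with 23 downstream summits under DMSO and 14 under the compound. At 10 genes, RPL7, RPL9, RPL18, RPL21, RPL23, RPL27A, RPL34, RPL35A, RPL36 and RPL37, the summit was downstream and then upstream, and at 1, RPLP0, the reverse. Over 6392 genes the numbers were 477 and 475. Of the summits downstream under DMSO, 43.5% went upstream at large subunit genes and 19.2% over all genes. Of those upstream under DMSO, 20% and 12.2% went downstream. The median difference was −40 bp, against −2 bp over all genes. Summits moved by more than 100 bp upstream at 12 large subunit genes and downstream at 6, against 983 and 951 over all genes. In replicate 1 these numbers were 10 and 0, against 1168 and 1107. In replicate 2, with 10 genes listed under both, RPL18 and RPL22 were downstream and then upstream.

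RPL18 was the only gene with this pattern in all 3 replicates, with N-MYC summits 50, 102 and 108 bp downstream under DMSO and 254, 233 and 104 bp upstream under the compound. The groups do not overlap. The TSS of another protein-coding gene, SPHK2, lies within 1 kb of that of RPL18. Such a neighbour also lies near RPL7, RPL9, RPL15, RPL27A and RPL35A among the genes that changed side. Upstream summits at these genes cannot be assigned to the large subunit gene alone. RPL37, whose WDR5 window is shown above, had N-MYC summits at 123, 66 and 135 bp under DMSO, and at −247 and −148 bp in compound replicates 1 and 3. RPL23 had 85, 29 and 45 bp, and then −28 and −69 bp. RPL36 had 85, 87 and 85 bp, and its compound peaks lay near another of its annotated TSSs, at −9344 and −9287 bp from the canonical one.

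Genes without WDR5 under DMSO were found on both sides of this pattern. RPL21, RPL22 and RPL27A changed side in at least 1 replicate, as RPL22 did from 33, 66 and 10 bp under DMSO to −37, −65 and 48 bp under the compound. RPL10, RPL14 and RPLP1 kept their side in every replicate with both listed, at −241, −233 and −258 bp under the compound for RPL10. RPLP1 had mean summits of 279 bp under DMSO and 327 bp under the compound. RPLP2, listed for WDR5 in 1 DMSO library, had −290, −276 and −313 bp under DMSO and −315, −272 and −293 bp under the compound, and the groups overlap.

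Nearly all genes that went unlisted for N-MYC had downstream summits under DMSO, 20 of 20 in replicate 1, 29 of 32 in replicate 2 and 14 of 15 in replicate 3. This was near the share of all listed large subunit genes in those DMSO libraries, which was 88.6, 85.7 and 86.0%. In a limma fit of the summit position over genes with N-MYC in all 6 libraries, added after seeing the data, 0 of 9 large subunit genes were called, against 0% of 2004 genes tested. RPL18 had a mean of 86.7 bp under DMSO and −197 bp under the compound, a difference of −284 ± 47.0 bp (SE, n = 3 and 3, limma, adjusted p = 0.476), and was the single large subunit gene of 72 genes with an unadjusted p under 0.05. RPL35 went the other way, from a mean of 170 bp under DMSO to 454 bp under the compound. With a single library left out, its difference ran from 214 to 396 bp. Of the 9 genes, 4 had a downstream and 5 an upstream difference. Without compound replicate 2, RPL36 alone was called among 19 large subunit genes, through its peaks at the other TSS, and 21 of all 4498 genes were.

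**Figure D4:**
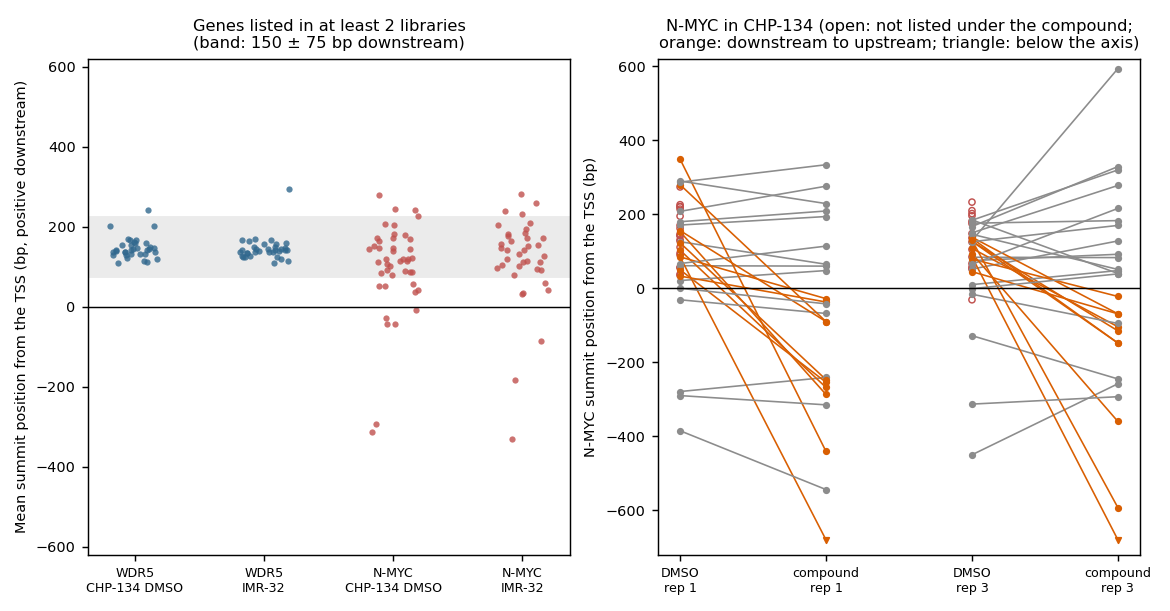
Left, mean summit position from the canonical TSS (bp, positive downstream) of the large subunit genes listed in at least 2 libraries, for WDR5 and N-MYC in CHP-134 under DMSO and in IMR-32, with the band from 75 to 225 bp shaded. Right, N-MYC summits under DMSO joined to those under the compound in replicates 1 and 3, with orange lines for the 10 genes per replicate that went from downstream to upstream, open points for genes not listed under the compound and a triangle for RPL36, whose compound summit lies below the axis.

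The promoters share sequence features that the choice of genes did not use, and several of them were also common in the related lists below. A C followed by at least 4 pyrimidines began within 5 bp of the canonical TSS at 39 of the 45 genes (86.7%), against 21.8% of 19845 genes, and exactly at it at 34 (75.6%, all genes 4.59%). The 6 without it were RPL9, RPL15, RPL17, RPL23, RPL23A and RPL27. Motifs were searched on both strands in the window from 250 bp before to 50 bp after the canonical TSS. CCGGAAG, an ETS factor motif, was found at 17 genes (37.8%, all genes 14.1%), and TCTCGCGA at 9 (20%, all genes 1.74%), which were RPL4, RPL7, RPL7A, RPL10, RPL10A, RPL12, RPL17, RPL26 and RPL27A. ATGGCGG, the core of the YY1 motif, was found at 8 (17.8%, all genes 7.86%) and CACGTG at 3 (6.67%, all genes 8.77%).

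CACGTG, the only E-box sequence searched, was rare at the summits of these genes. In the library with the highest −log10 q-value for each gene, CACGTG lay within 100 bp of the N-MYC summit at 2 of 44 genes in CHP-134 under DMSO, RPL22 and RPL30 (4.55%, all genes with N-MYC 27.0%), and at 3 of 38 in IMR-32, RPL13A, RPL22 and RPL32 (7.89%, all genes 41.8%). Near the WDR5 summit it was found at RPL12 alone in CHP-134 (1 of 34, all genes 22.3%) and at 0 of 34 in IMR-32 (13.8%). ATGGCGG lay within 100 bp of the N-MYC summit at 8 of 44 genes (18.2%, all genes 7.38%), among them RPL3, RPL8, RPL17 and RPL36. RPL22 and RPL30, the genes with CACGTG near the N-MYC summit in CHP-134 under DMSO, lacked WDR5 there. A match is a description of the letters only.

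Of the 45 genes, 18 carry small nucleolar RNA genes in their introns, and 12 of these had WDR5 in at least 2 DMSO libraries, as did 22 of the other 27. N-MYC under the compound was listed in at least 2 libraries at 8 of the 18 and at 13 of the 27. A TSS of another protein-coding gene lay within 1 kb of the canonical TSS at 13 genes, 12 of which had WDR5 under DMSO. At those 13 a peak cannot be assigned to the large subunit gene alone. At RPL17 the only such gene was RPL17-C18orf32, a readthrough of RPL17 itself. Only the canonical TSS of each large subunit gene was checked for such a neighbour. N-MYC remained listed in at least 2 compound libraries at 4 of the 13 and at 17 of the 32 without such a neighbour.

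Listing, rank, summits and motifs were also measured in related gene lists. Of 33 small subunit genes, 18 had WDR5 in at least 2 DMSO libraries, 28 had N-MYC there and 17 had both. Their WDR5 percentiles had medians of 98.7, 96.0 and 97.3, close to those of the large subunit. Most listed WDR5 peaks were strong in either list. Under DMSO, 70, 82.4 and 82.4% of listed small subunit genes stood at percentile 90 or above. The shares for large subunit genes were 86.5, 91.2 and 91.2%. N-MYC was listed in at least 2 compound libraries at 17 small subunit genes. The WDR5 summits of the 14 small subunit genes listed in every DMSO library had a median of 151 bp downstream and all lay between 75 and 225 bp. Of their N-MYC summits, 5 went from downstream to upstream under the compound and 0 the reverse in replicate 1, and 5 and 3 did in replicate 3. Of 49 genes for the large subunit of the mitochondrial ribosome, 6 had WDR5 in at least 2 DMSO libraries and 31 had N-MYC, and WDR5 medians were 72.0, 39.7 and 47.1. Among paralogs outside the 45, RPL22L1, RPL36AL, RPL39L and RPL7L1 had N-MYC in at least 2 DMSO libraries and also in at least 2 compound libraries, and RPL39L and RPL7L1 had WDR5 under DMSO. RPL3L, RPL10L and RPL26L1 had neither protein in at least 2 DMSO libraries. The pyrimidine run within 5 bp of the TSS was found at 87.9% of small subunit and 18.4% of mitochondrial large subunit genes. TCTCGCGA was found at 18.2% and 2.04% of their promoters, CCGGAAG at 27.3% and 40.8%, and ATGGCGG at 24.2% and 30.6%. In CHP-134 under DMSO, CACGTG lay near the WDR5 summit at 0 of 18 small subunit genes and near the N-MYC summit at 10.7%. These lists were compared by counts and shares only, with no test.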

How the data were processed

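N-MYC and WDR5 ChIP-seq was analysed in 16 libraries. Before deposition the authors removed adapters (Cutadapt), mapped the reads on hg19 (Bowtie2) and ran MACS2 on each library with a q-value limit of 0.05. Tool versions and the control library are not given in the sources used here. Each deposited list gives per peak a fold (a ratio over local background), a −log10 p-value, a −log10 q-value, a score and the summit. The deposited fold was used for ranks, the −log10 q-value for a stricter filter and the score was not used. No peak ran beyond its GRCh37 chromosome. The 6 IgG samples were not analysed here. A gene of 1 related list is not reported here.

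The 45 genes and the other lists were chosen with earlier results of these data known. TSSs came from basic transcripts of the GENCODE annotation of GRCh37, and listing used summits within 1 kb. Ranks among genes listed in every library of a comparison, or summit positions, were fitted with limma 3.58.1 (R 4.3.3) across those genes, with Benjamini-Hochberg adjustment and a threshold of 0.05. Lists under 100 peaks were left out, which removed compound WDR5 replicate 2 from every fit but those with unlisted genes at percentile 0. Python 3.11.15, pandas 2.3.3, numpy 2.4.6, pysam 0.24.0 and matplotlib 3.10.9 did the rest. The fits were tested on simulated data: with 200 of 2011 genes shifted by 60 rank points, 92 were recovered for N-MYC ranks of compound against DMSO.

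Libraries with the same replicate number deviated together for N-MYC ranks of compound against DMSO (correlations 0.60 to 0.66 over genes) and for WDR5 against N-MYC under DMSO (0.39 to 0.43). They also did for WDR5 ranks of compound against DMSO (0.42 and 0.53), with only 2 pairs. That numbers pair libraries was taken from the data and not from a label. The SEs and p-values in the text leave this pairing out, except where the replicate block is named.

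Genes named in the text are the ChIP-QPCR loci RPL35, RPL17 and RPL10, the 5 highest and 5 lowest by percentile for each protein under DMSO among genes listed in all 3 libraries and the 5 highest in IMR-32, up to 10 called genes per direction in each fit (the 3 largest differences per direction where none was called), genes listed in all libraries of one group and none of the other, genes with N-MYC and no WDR5 or with neither, genes with an E-box at the N-MYC summit, and the 5 nearest and farthest WDR5 summits. Others were named after their values were seen, where small counts or summit changes are listed. Alternatives were percentiles within the whole list, centred log2 folds, a −log10 q-value of at least 5, canonical or nearest TSSs, windows of 500 bp and 2 kb, any part of a peak, the replicate block and leaving out each library. Setting unlisted genes at percentile 0, dropping replicate 2 of both treatments, the summit comparison of compound against DMSO and the alternatives for lost listings were added after seeing the data.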

Additional observations from a re-analysis of the deposited data

How the results depend on the processing

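Counts of listed genes under DMSO and in IMR-32 kept within 1.5 times under every window, filter and library left out. N-MYC listing under the compound (21 genes) was 9 with every library required, 32 with at least 1, and 9 to 20 with a library left out. WDR5 listing there (10) was 6 at a −log10 q of at least 5, 1 with every library, 32 with at least 1, and 1 to 9 with a library left out, and the genes with WDR5 in all DMSO and no compound libraries numbered 12 in place of 6 at that filter. Of fits, WDR5 ranks of compound against DMSO called 8 genes, 5 with percentiles within the whole list, 14 with unlisted genes at 0 (9 when compound replicate 2 was dropped from that fit, and 9 with the replicate block) and 2 to 17 with a library left out. The fits between lines called 1 (N-MYC) and 17 (WDR5) on centred log2 folds in place of 0. WDR5 against N-MYC called 25 in CHP-134, 6 within whole lists and 19 to 26 with a library left out, and in IMR-32 15, 1 within whole lists, 30 on log2 folds and 0 to 22 with a library left out. Summit comparisons called 3 in CHP-134 (1 to 2 with a library left out) and 1 in IMR-32 (0 from the nearest TSS, 0 to 3 with a library left out), and N-MYC summits of compound against DMSO 0 (0 to 1 with a library left out, and 1, RPL36, without replicate 2 of both treatments).

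Over all genes tested, WDR5 of compound against DMSO called 38 genes, 11 within whole lists and 4 to 120 with a library left out. WDR5 between lines called 25, 0 within whole lists, 166 on log2 folds, 11 with a 500 bp window and 0 to 18 with a library left out, and N-MYC between lines 0, but 8 on log2 folds. WDR5 against N-MYC called 283 in CHP-134 and 91 within whole lists, and in IMR-32 199, 75 within whole lists, 312 on log2 folds and 0 without either WDR5 library.

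With the replicate block, the paired N-MYC fit of compound against DMSO called 0 genes and WDR5 against N-MYC in CHP-134 called 27 (332 of 620 genes in all). For WDR5 under the compound, the block gave 9 in place of 8 (68 of 138 genes in all, in place of 38). Same-numbered libraries correlated there at 0.42 and 0.53, with only 2 pairs. For summits in CHP-134, where they correlated at only 0.01, the block gave 1 in place of 3 (119 of 619 genes in all, in place of 176).

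The sign turned for N-MYC of compound against DMSO at RPL10 (−3.17) and RPLP0 (−6.69) within whole lists, and with unlisted genes at 0 with or without the replicate block, at RPLP2 (0.745) without replicate 2 of both treatments and at RPL18 (7.02) without DMSO replicate 2. With a single library left out, RPLP2 ran from −29.6 to −0.281 and RPL18 from −24.6 to 7.02. It turned for the RPL36A summit (−86.7 bp) from the nearest TSS. The cause was not tested. Depth is unknown, and short lists limit what could be listed.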
